A study of Mus musculus with 8 samples.

Results

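ATAC-seq summits of mouse brown adipose tissue (BAT) were examined at the genes for chromatin remodelers and bromodomain proteins. The members were taken by symbol from the autosomal genes with a curated RefSeq mRNA on mm10. A gene was a member when its symbol began with Smarc or Arid, or was Chd, Brd, Baz or Ino80 with at most a digit and a letter after it. This gave 50 members of 20021 autosomal genes, or of 21000 genes when the sex chromosomes were counted. The rule itself uses no measured value. Of the 50, 12 are SWI/SNF subunits, 3 are ISWI or other SNF2-type ATPases, 7 are other ARID factors, 10 are CHD proteins, 5 are INO80 subunits, 4 are BAZ proteins, 4 are BET proteins and 4 are other Brd proteins. The remaining member, Chdh, is choline dehydrogenase, a mitochondrial enzyme that met the rule through its letters only. Smarca1, which is on the X, was not a member.

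ATAC-seq uses the Tn5 transposase to cut and tag DNA that nucleosomes leave free. Nuclei came from the BAT of 12-week-old mice on chow that spent 4 hr at 4°C, with 2 WT mice, which carried the floxed Dot1l alleles without Cre, and 2 Dot1l-BKO mice. Dot1l-BKO mice carry floxed Dot1l and Ucp1-Cre, so that Dot1l, the H3K79 methyltransferase, is deleted in Ucp1+ cells while the other cells of the tissue keep it. The deposited data are 1 list of 32173 peak summits made from the 4 libraries, each summit with the −log10 of its MACS2 q-value, called the score here. The label of the list sets the WT libraries against those of Dot1l-BKO mice. The methods of the study speak of peaks found in each sample and joined into a union of regions, and do not say how this list was made or if the Dot1l-BKO reads were the MACS2 control for it. If they were, a summit and its score would stand for WT signal over Dot1l-BKO signal, and not for accessibility in the tissue as such. The list has no value for any library, so that depth is unknown, no error between mice can be given and the genotypes could not be compared. Scores ran from 1.31 upwards with a median of 5.0 on the autosomes, and took only 2606 distinct values, so that small differences between scores are not resolved. Of the brown adipocyte markers, 12 of 12 had a summit within 1 kb of a transcription start site (TSS), against 1 of 4 endothelial, 1 of 4 leukocyte, 0 of 4 skeletal muscle, 1 of 4 hepatocyte and 0 of 4 neuronal markers. A gene without a summit is a gene where no peak passed the authors' cutoffs, which is not a measurement of closed chromatin. BAT holds several cell types, and a site open in few cells cannot be told apart from a site weakly open in all.

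Chromatin remodelers are complexes built around a SNF2-type ATPase that slides, ejects or exchanges nucleosomes. The SWI/SNF, ISWI, CHD and INO80 families differ in their ATPase and in the subunits that read histone marks or bind DNA. Bromodomains bind acetylated lysines on histone tails, and BET proteins use a pair of them to bring elongation factors to acetylated promoters and enhancers. In brown fat these proteins work with the nuclear receptors and C/EBP factors that open enhancers of thermogenic genes. The summits of the list at the genes themselves are described below.

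A summit lay within 1 kb of a TSS, called a promoter summit here, in 34 of 50 members (68.0%, 95% Wilson interval 54.2 to 79.2%). Over all autosomal genes the share was 46.8%. Within 10 kb of a TSS, 43 of 50 members had a summit (86.0%, 73.8 to 93.0%), against 55.8% of all genes. In the gene body, from the first to the last base of the curated mRNAs, 39 of 50 members had a summit (78.0%, 64.8 to 87.2%), against 41.2% of all genes. The gene body includes bases within 1 kb of a TSS, so that a promoter summit can count in both shares. Without the 1 kb around each TSS, 27 of 50 members had a gene-body summit, and the share of all genes is not given for that setting. These shares were described without a test, because genes are not replicates, and the intervals cover counting error only.

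**Figure D1:**
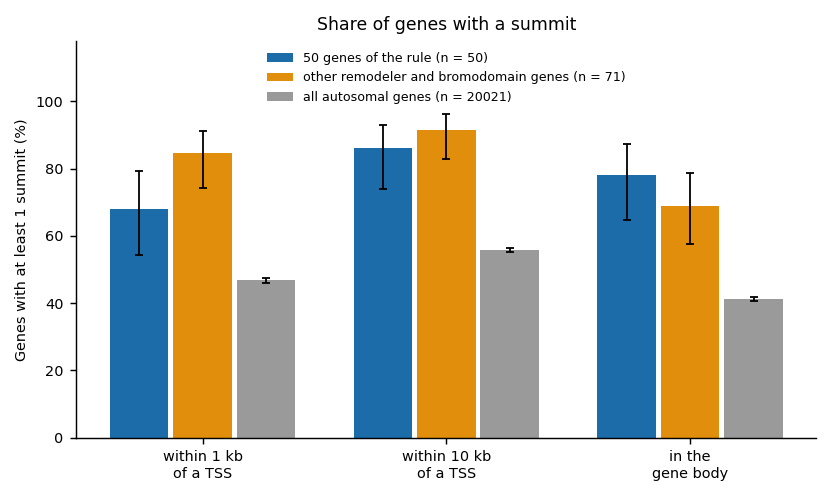
Percent of genes with at least 1 summit within 1 kb of a TSS, within 10 kb of a TSS and in the gene body, for the 50 members, 71 other remodeler and bromodomain genes and 20021 autosomal genes, with 95% Wilson intervals as error bars. The members stood at 68.0%, 86.0% and 78.0%, and all genes at 46.8%, 55.8% and 41.2%.

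The 144 summits within 10 kb of a member TSS or inside a member gene were spread over 44 members, since 6 members had none, and no summit was near 2 members at once. Of the 144, 46 were promoter summits, 54 lay 1 to 10 kb from a TSS and 44 lay farther away inside the gene. Promoter, gene-body and 10-kb summits were all present in 30 members. Arid2, Arid4b, Chd6 and Ino80d had a promoter summit and none in the body. The shares of all genes in these classes are not given, so that these class counts describe the members only. At least 2 promoter summits were present in 11 of 50 members (22%), against 8.45% of all genes. More members than genes at large had several annotated TSSs, 34.0% against 17.3%, which widens the window that is searched. With only the most 5-prime TSS of each gene, 34 members still had a promoter summit and 43 a summit within 10 kb, and the promoter share of all genes was 45.4%.

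**Figure D2:**
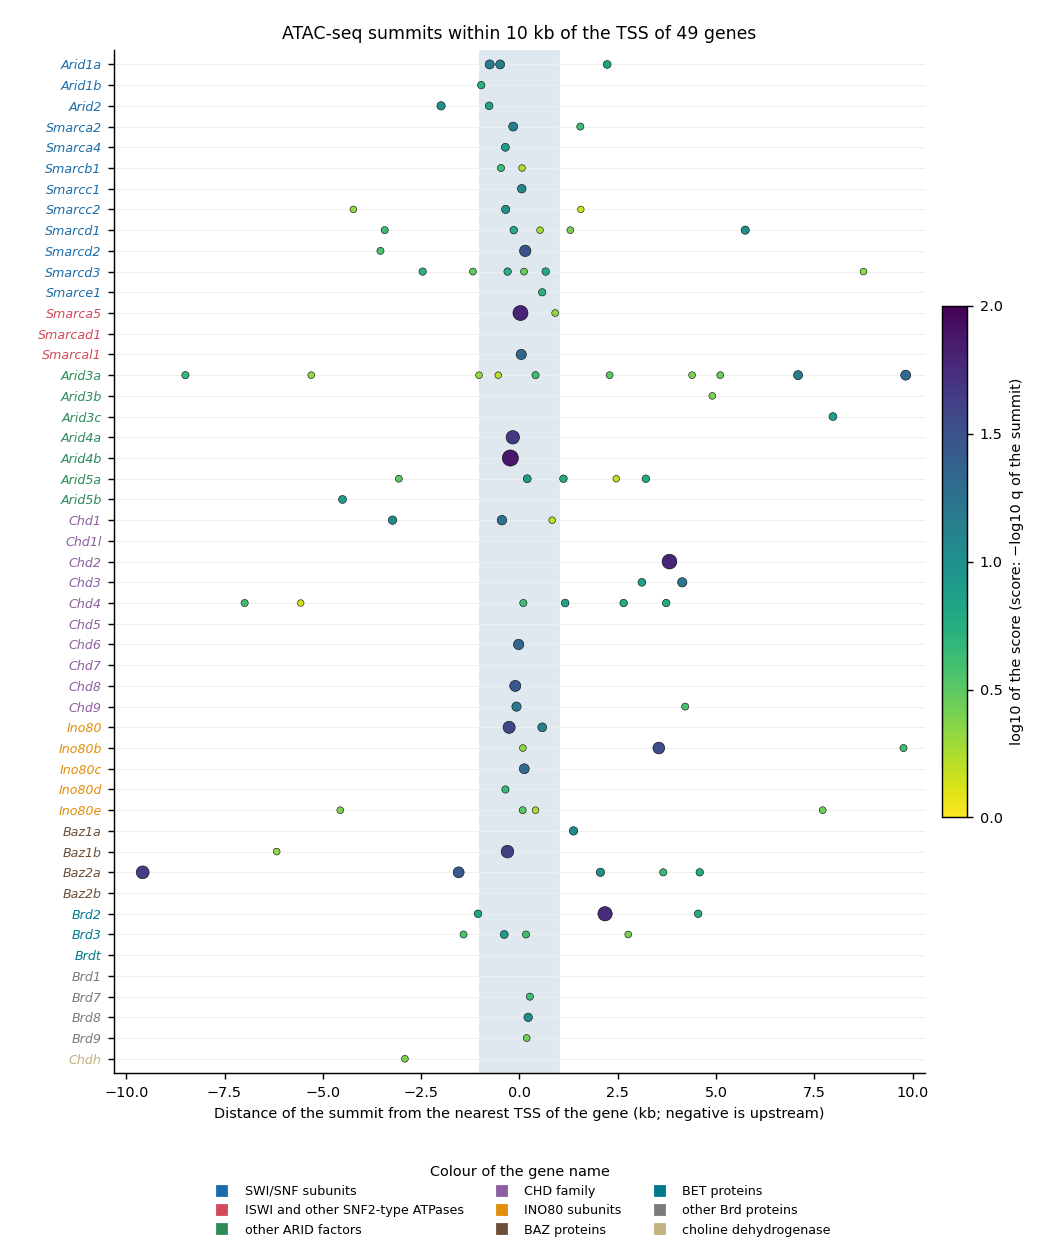
Position of each summit within 10 kb of the nearest TSS of its gene, in kb, for 49 of the 50 members grouped by role, with the 1 kb on each side of the TSS shaded. Colour and size of a point follow the score of the summit. Arid4b, Smarca5, Arid4a, Baz1b and Ino80 have the highest scores inside the shaded window, while the strongest summits of Chd2 and Brd2 lie downstream of it.

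The 5 highest promoter scores belonged to Arid4b, Smarca5, Arid4a, Baz1b and Ino80. Arid4b, which bridges the Sin3 deacetylase complex and the retinoblastoma protein, had a score of 75.6 at chr13, position 14063551, 233 bp upstream of its TSS and 63 bp from the TSS of the neighbouring gene Ggps1. Smarca5, the Snf2h ATPase of the ISWI complexes, had 63.7 at chr8, position 80739434, in its first exon 25 bp downstream of the TSS. For Arid4a, the paralog of Arid4b, the score was 48.2 at chr12, position 71015797, 170 bp upstream. Baz1b, the WSTF partner of Smarca5, had 41.0 at chr5, position 135187018, 305 bp upstream. Ino80, the ATPase of the INO80 complex, had 36.7 at chr2, position 119477950, 263 bp upstream, and a second summit of 13.4 in its first intron, 579 bp downstream. These summits ranked 150, 276, 615, 847 and 1089 in the list.

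Arid4a had no entry in the promoter sequences used here. The DNA at the other promoters just named is shown to let these strong sites of the members be compared base by base. It is mm10 sequence of 101 bases on the strand of the gene, around the summit for Arid4b, Baz1b and Ino80 and ending 1 base before the TSS for Smarca5, whose summit is in its first exon. Capitals mark any match, on either strand, to SP/KLF GGGCGG, ETS CCGGAAG, NRF1 CGCATGCG, NFY AGCCAAT, YY1 AAGATGGC, CRE TGACGTCA, E-box CACGTG, AP-1 TGANTCA, C/EBP TTGCNNAA, EBF CCCNNGGG, nuclear receptor core AGGTCA or NFI TTGGCA.
Arid4b, chr13:14063501-14063601, plus strand: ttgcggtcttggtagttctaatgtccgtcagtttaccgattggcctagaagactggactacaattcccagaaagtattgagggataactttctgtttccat
Smarca5, chr8:80739460-80739560, minus strand: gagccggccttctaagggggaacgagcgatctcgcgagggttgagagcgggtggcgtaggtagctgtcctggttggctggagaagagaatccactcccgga
Baz1b, chr5:135186968-135187068, plus strand: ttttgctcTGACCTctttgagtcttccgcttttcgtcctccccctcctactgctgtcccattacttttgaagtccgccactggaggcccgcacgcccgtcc
Ino80, chr2:119477900-119478000, minus strand: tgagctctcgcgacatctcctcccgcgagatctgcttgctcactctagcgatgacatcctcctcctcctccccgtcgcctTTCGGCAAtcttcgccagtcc
Baz1b held the reverse complement of AGGTCA and Ino80 that of TTGCNNAA, while Arid4b and Smarca5 held none of the 12 patterns in these bases. GC content ran from 42.6% at the Arid4b summit to 62.4% before the Smarca5 TSS, with 3 and 8 CG dinucleotides.

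All 12 SWI/SNF subunit genes had a promoter summit (100%, 75.8 to 100%), against 46.8% of all genes. The 12 genes held 17 promoter summits. The highest was at Smarcd2 with 30.9, then Arid1a with 14.7, Smarca2 with 14.0, Smarcc1 with 11.9, Smarcc2 with 9.78, Smarca4 with 8.12, Arid2 with 7.05, Smarcd1 and Smarcd3 with 6.02 each, Arid1b with 5.55, Smarce1 with 5.18 and Smarcb1 with 4.16. Smarca4 and Smarca2 are the alternative ATPases Brg1 and Brm. Arid1a and Arid1b are the alternative ARID subunits of the canonical complex, and Arid2 is that of the PBAF complex. The median of the 12 highest scores was 7.58, against 10.9 over all genes with a promoter summit, a difference that was not tested. Smarcd3, a Baf60 subunit, had 3 promoter summits with scores of 6.02, 5.55 and 2.92, and 6 summits within 10 kb. Smarcd1, another Baf60 subunit, had 5 within 10 kb, the highest of them with 9.78 in an intron 5740 bp downstream of the TSS.

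Among the other SNF2-type ATPases, Smarcal1, which anneals DNA at stalled replication forks, had 22.4 at 45 bp from its TSS. Smarcad1, a remodeler with roles in DNA repair, had no summit within 10 kb or in its body, and the nearest was 172663 bp from a TSS. The INO80 subunit genes all had a promoter summit, 5 of 5 (100%, 56.6 to 100%), against 46.8% of all genes. After Ino80 came Ino80c with 20.2, Ino80d with 4.61, Ino80e with 3.32 and Ino80b with 2.15. A much stronger summit of 34.2 lay 3543 bp downstream of the Ino80b TSS, outside the gene and 115 bp from the TSS of Wbp1. Both promoter summits of Ino80e lay within 1 kb of the TSS of Hirip3, at 591 bp and 8 bp.

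The other ARID factors, which bind DNA outside the SWI/SNF complexes, had a promoter summit in 4 of 7. Besides Arid4b and Arid4a the ones with a promoter summit were Arid5a, an RNA-binding protein that stabilises transcripts, with 8.12, and Arid3a with 4.16. Arid3b had a single summit of 2.53 in an intron 4903 bp from the TSS. The only summit at Arid3c, 7.91, lay 7970 bp away, beyond the end of the gene and 9 bp from the TSS of Dctn3. Arid5b, which acts with the demethylase Phf2 and is needed for normal fat in mice, had 8.12 at 4500 bp upstream and 7.05 in an intron 142048 bp downstream. That intronic summit was 52 bp from the start of a shorter protein-coding transcript in GENCODE M21.

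In the CHD family, 5 of 10 genes had a promoter summit. Chd8, a helicase that binds beta-catenin, had 28.5, Chd6 had 23.1, Chd1 had 17.4, Chd9 had 16.0 and Chd4, the main ATPase of the NuRD complex, had 4.16. Chd4 also had 6 summits within 10 kb, 3 of them between 1161 and 3730 bp downstream of a TSS with scores of 7.05, 6.02 and 6.02. Chd2 had no promoter summit, and its only summit was among the strongest of all members with 61.5. It lay at chr7, position 73537932, in an intron 3814 bp downstream of the TSS. Chd3, a further NuRD ATPase, had summits of 7.33 and 16.4 at 3113 and 4139 bp downstream. Chd7 had no summit within 10 kb and 3 in its body, the highest 11.5 at 15503 bp from a TSS. No summit was found near or in Chd5, the NuRD ATPase of neurons, or Chd1l, a PARP-dependent remodeler, and the nearest summits lay 12920 and 47738 bp away.

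Baz1b was the only BAZ gene of 4 with a promoter summit. Baz1a, the Acf1 partner of Smarca5, had 10.9 in an intron 1374 bp downstream of the TSS. Baz2a, the Tip5 subunit that silences ribosomal DNA, had 5 summits within 10 kb and none within 1 kb. Its nearest, with 27.7, lay 1547 bp upstream, and its strongest, with 42.8, lay 9581 bp upstream and 105 bp from the TSS of Atp5b. No summit was found near or in Baz2b, a gene of 226378 bp, and the nearest lay 242444 bp from its TSS.

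Of the BET genes, Brd3 had promoter summits of 8.12 and 4.04, and Brd2 and Brdt had none. Brd2 had 3 summits within 10 kb. The strongest, with 56.6 at chr17, position 34119571, lay in an exon 2176 bp downstream of the nearest TSS of a curated mRNA and 329 bp from the start of a noncoding RefSeq transcript of the gene. The summit nearest to a curated TSS, with 6.53, lay 1054 bp upstream, 54 bp outside the window, inside H2-DMa and 829 bp from the TSS of that gene. Brdt, the testis BET gene, had no summit within 10 kb or in its body. Of the other Brd genes, Brd8, a subunit of the EP400 complex, had 10.9, Brd7 of the PBAF complex had 4.16 and Brd9 of the noncanonical SWI/SNF complex had 2.75. The Brd8 and Brd9 summits were 18 bp and 244 bp from the TSSs of Kif20a and Trip13. Brd1, a scaffold of histone acetyltransferases, had none, and its nearest summit lay 16431 bp away. Chdh had a single summit of 2.53 in an intron 2913 bp from a TSS.

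**Figure D3:**
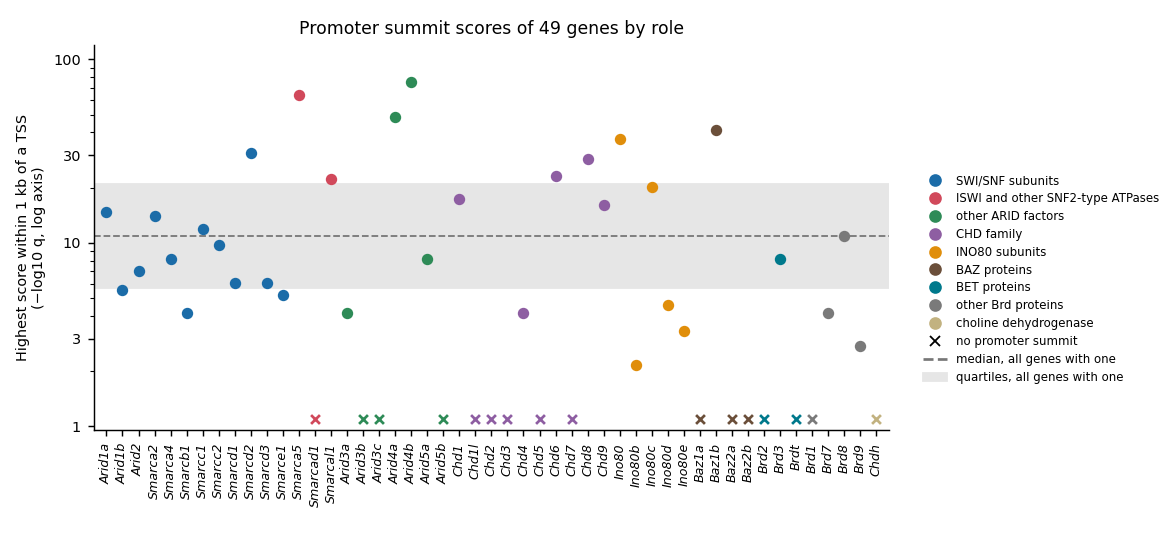
Highest score within 1 kb of a TSS for 49 of the 50 members on a log axis, coloured by role, with 33 points for members with a promoter summit and 16 crosses for the members without. The dashed line is the median (10.9) and the band the quartiles (5.68 to 20.9) over the 9371 autosomal genes with a promoter summit. SWI/SNF subunits have points throughout, between 4.16 and 30.9, while 3 of 4 BAZ genes and 5 of 10 CHD genes have crosses. Of all autosomal genes, 10650 of 20021 had no promoter summit.

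The 16 members without a promoter summit were searched for other annotated starts, because several had strong summits a few kb away. When every RefSeq transcript start and every protein-coding start of GENCODE M21 was allowed, 40 of 50 members had a summit within 1 kb of a start (80%, 67.0 to 88.8%), against 48.8% of all genes. This window was chosen after the summits had been seen. The 6 members gained were Arid5b, Baz1a, Baz2a, Brd2, Chd2 and Chd3. The summit of 61.5 at Chd2 was 311 bp from a GENCODE start, that of 27.7 at Baz2a was 134 bp from a predicted RefSeq start and that of 10.9 at Baz1a was 974 bp from a GENCODE start. At Chd3 the summits were 508 and 147 bp from such starts. The 10 members left were Smarcad1, Arid3b, Arid3c, Chd1l, Chd5, Chd7, Baz2b, Brdt, Brd1 and Chdh. Which starts BAT uses cannot be read from summits.

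Over the 34 members with a promoter summit, the median of the highest score at each was 8.95 (95% interval from ranked values 5.55 to 17.4) with quartiles of 4.75 and 21.8. Over all genes with a promoter summit it was 10.9 with quartiles of 5.68 and 20.9, and the difference was not tested. With a score of at least 10, 16 of 50 members had a promoter summit (32.0%, 20.8 to 45.8%), against 24.5% of all genes, a share inside that interval. At a score of at least 20 the shares were 20% (10 of 50 members) and 12.4%, and at 50 they were 4.00% (2 of 50 members) and 2.52%. The commonest value, 4.16, was held by 6 of the 46 member promoter summits and by 1942 summits of the list. Within 100 bp of the TSS lay 9 of the 46 (19.6%, 10.7 to 33.2%), and of the 11305 pairs of a gene and a promoter summit over all genes 33.0%, a share inside that interval. Upstream of the TSS were 22 of the 46 (47.8%), against 54.4% over all genes. Neither difference was tested.

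**Figure D4:**
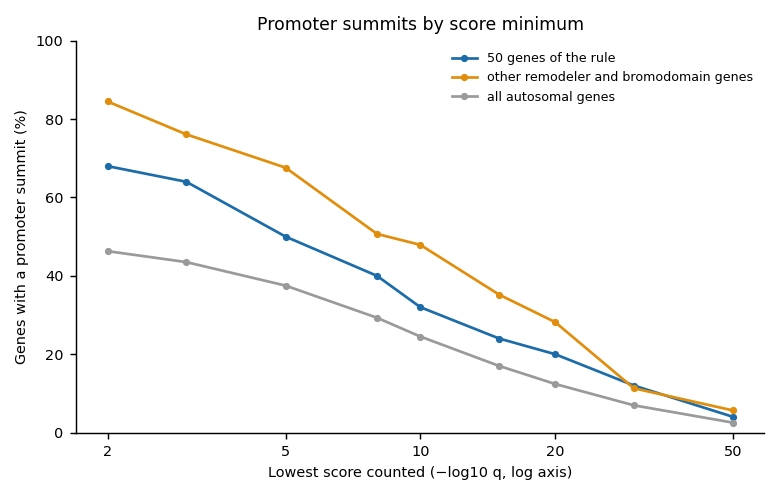
Percent of genes with a promoter summit as the lowest score counted rises from 2 to 50 on a log axis, for the 50 members, 71 other remodeler and bromodomain genes and 20021 autosomal genes. The members lie between the other lists up to a score of 20, falling from 68.0% to 20%, and all genes fall from 46.3% to 12.4%.

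Inside the genes, 100 summits were counted in 3.62 Mb, or 2.76 per 100 kb (exact Poisson interval 2.25 to 3.36). Over all genes there were 1.98 per 100 kb. Of the 100, 80 were in introns and 20 in exons, and 75 lay over 1 kb from a TSS with a median score of 4.46. The other ARID factors had 4.2 per 100 kb (2.60 to 6.42), the SWI/SNF subunits 3.41 (2.37 to 4.74), the CHD genes 2.06 (1.26 to 3.18) and the BAZ genes 1.20 (0.391 to 2.81). These intervals overlap each other. At least 5 gene-body summits were found in 5 of 50 members (10%, 4.35 to 21.4%), against 4.18% of all genes, which are shorter as given below.

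Arid1b had 12 summits in a gene of 352583 bp, all intronic, the highest of them with 26.1 at chr17, position 5189900, 194826 bp from the TSS. Its single promoter summit of 5.55 was near the edge of the window at 973 bp. Arid3a had 10 in only 27976 bp, and also 10 within 10 kb of a TSS. Most of these were weak, while 2 intronic summits 7084 and 9821 bp downstream had 14.7 and 20.9, both above the 4.16 of its promoter. Chd9 had 8 in 225674 bp. The strongest, with 53.8 at chr8, position 90869685, lay 40850 bp into the gene, and another with 31.7 lay 245 bp from a GENCODE start. Arid5a had 6 in 16297 bp, with scores of 8.12 or less, and 5 within 10 kb of its TSS. Arid1a had 5 in 77762 bp, including the promoter summit of 14.0 at 491 bp from the nearest TSS, while its other promoter summit, 14.7, lay outside the gene. The strongest intronic site of Arid1b, Chd9 and Arid1a over 1 kb from a TSS is shown as 101 bases of mm10 around the summit, on the strand of the gene, with capitals for the same 12 patterns.
Arid1b, chr17:5189850-5189950, plus strand: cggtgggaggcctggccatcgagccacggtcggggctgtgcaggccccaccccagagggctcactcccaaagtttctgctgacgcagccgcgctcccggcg
Chd9, chr8:90869635-90869735, plus strand: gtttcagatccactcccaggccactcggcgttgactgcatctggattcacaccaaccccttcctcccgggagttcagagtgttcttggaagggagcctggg
Arid1a, chr4:133688651-133688751, minus strand: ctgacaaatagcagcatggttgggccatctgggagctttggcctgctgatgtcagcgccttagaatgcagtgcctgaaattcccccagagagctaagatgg
None of the 12 patterns occurred in these 3 stretches. The Arid1b site was GC-rich at 72.3% with 9 CG dinucleotides, as many as at the Ino80 promoter summit. The Chd9 and Arid1a sites had 58.4% and 53.5% GC with 3 CG dinucleotides and 1.

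Length did not order the members by their number of gene-body summits. Members were long, with a median of 50.5 kb against 16.9 kb over all genes. Spearman's rho between length and gene-body summits was −0.162 over the 50 members, against 0.268 over all genes, given as a description. Of the 9 members up to 20 kb, 8 had a gene-body summit (88.9% against 32.8% of all genes of that length). Of the 16 from 20 to 50 kb 14 had one (87.5% against 46.8%), of the 13 from 50 to 100 kb 9 had one (69.2% against 50.9%) and of the 12 longer ones 8 had one (66.7% against 61.4%). In these counts the difference from all genes was widest in the short genes and small in genes over 100 kb. The classes hold few members, and this order was not tested. Of the short members, Smarcd2, Ino80b and Ino80c had gene-body summits only within 1 kb of a TSS, so that they count here through promoter summits. The short members included Smarcd1, Smarcd2, Smarcd3, Ino80e, Arid5a and Brd2.

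**Figure D5:**
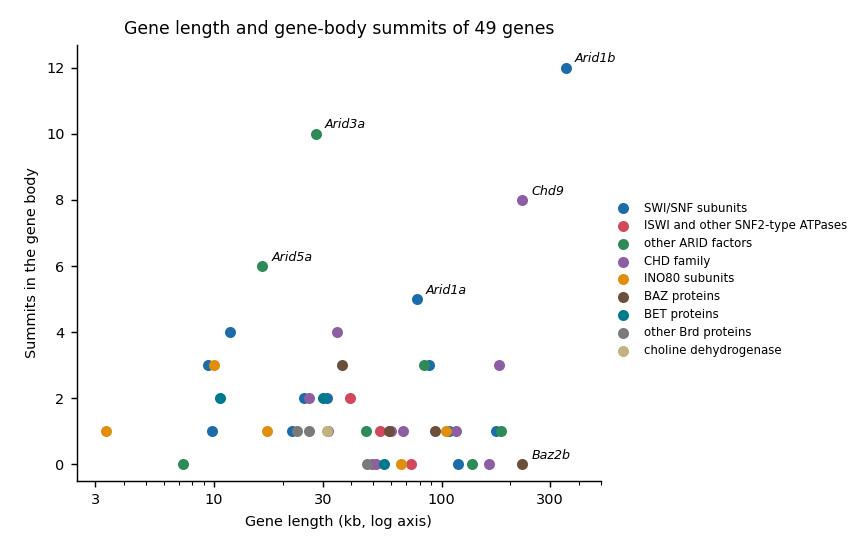
Number of summits in the gene body against gene length in kb on a log axis for 49 of the 50 members, coloured by role. Arid1b (12 summits) and Chd9 (8) are long, Arid3a (10) and Arid5a (6) are short, and Baz2b has none in 226378 bp.

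Promoter sequence of 300 bases, from 250 before to 50 after a TSS, was available from RefSeq (GRCm38.p6) for 48 promoters of 37 members. Smarce1, Arid2, Arid3a, Arid4a, Chd1, Chd2, Chd3, Chd7, Ino80c, Ino80d, Baz1a and Brd8 were among those without an entry. Median GC content was 65.7%, against 57% over 19336 autosomal promoters, and the median ratio of observed to expected CpG was 0.850 against 0.60. A ratio of at least 0.6 was found in 41 of 48 member promoters (85.4%), against 50.1% of all. Among these CpG-rich promoters 28 of 41 had a summit within 1 kb (68.3%), against 73.8% of all CpG-rich promoters. Among the 7 below 0.6 there were 0, against 18.7% of all such promoters. Before this split 28 of 48 member promoters had a summit (58.3%), against 46.3% of all. Those 28 belonged to 24 genes, while 34 members had a promoter summit, so that several members with one are missing from these shares. Smarcd2 entered only through a TSS inside the gene without a summit, with a ratio of 0.177. All these shares count promoters, of which a gene can have up to 3. The differences within the classes amount to a few promoters and were not tested. SP/KLF GGGCGG was found in 35 of 48 member promoters (72.9%), against 48.1% of all, and in 26 of 28 with a summit, against 69.5% of all with a summit.

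Of the 6 members without any summit, Smarcad1, Chd1l, Chd5, Brdt and Brd1 had a ratio of at least 0.6 at each promoter, and Baz2b did not. The 101 bases before the TSS are shown for 3 of them, Brd1, which is broadly expressed, Brdt, which is a testis gene, and Baz2b, with the same capitals.
Brd1, chr15:88734220-88734320, minus strand: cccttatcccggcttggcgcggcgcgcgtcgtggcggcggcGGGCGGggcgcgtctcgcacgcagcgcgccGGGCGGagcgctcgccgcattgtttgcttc
Brdt, chr5:107331093-107331193, plus strand: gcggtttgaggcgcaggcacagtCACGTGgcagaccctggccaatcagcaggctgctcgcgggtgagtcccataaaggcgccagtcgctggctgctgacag
Baz2b, chr2:60125741-60125841, minus strand: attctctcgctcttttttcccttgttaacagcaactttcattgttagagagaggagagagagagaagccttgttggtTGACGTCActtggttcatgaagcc
Brd1 held 22 CG dinucleotides and the SP/KLF pattern at 2 places, and the ratio over its 300 bases was 1.03. Brdt held 7 and an E-box, with a ratio of 0.738. Baz2b held 2 and the only CRE of the 48 promoters, with a ratio of 0.385. Over all promoters a CRE was found in 2.35% and an E-box CACGTG in 8.06%.

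Within 201 bases centred on the summits, member promoter summits and all autosomal promoter summits were alike in GC content (median 62.7% and 62.2%). They were also alike in SP/KLF GGGCGG (20 of 46, 43.5%, and 44.9%). Less alike were ETS CCGGAAG (3 of 46, 6.52%, and 11.7%), NFY AGCCAAT (1 of 46, 2.17%, and 7.27%) and YY1 AAGATGGC (3 of 46, 6.52%, and 2.47%). The nuclear receptor core AGGTCA was found at 7 of 46 member promoter summits (15.2%) and at 9.94% of all promoter summits. At the 75 gene-body summits over 1 kb from a TSS it was found at 10 (13.3%), against 17.9% of all autosomal summits over 1 kb from a TSS, a set that also holds summits between genes. C/EBP TTGCNNAA was found at 2 of these 75 (2.67%), against 13% of that set, and NFI TTGGCA at 11 (14.7%), against 12.8%. CRE TGACGTCA was found at 2 (2.67%), against 0.569%. With 46 and 75 windows a few matches move a share by several percent, and none of these differences was tested.

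The other genes of these complexes, 71 that the symbol rule does not take, had a promoter summit in 60 (84.5%, 74.3 to 91.1%), against 46.8% of all genes. By group these were 12 of 16 SWI/SNF partners, 14 of 15 INO80, SRCAP and EP400 partners, 14 of 15 ISWI and NuRD partners, 6 of 7 further SNF2-type ATPases and 14 of 18 further bromodomain proteins. Their median of the highest promoter score was 13.7, against 8.95 for the members and 10.9 over all genes with a promoter summit. In the gene body the order was turned, with 49 of 71 (69.0%, 57.5 to 78.6%) against 78.0% of the members and 41.2% of all genes. The intervals of the members and of the 71 genes overlapped at each measure. The density of gene-body summits in the 71 genes was 2.66 per 100 kb (2.17 to 3.23), close to the 2.76 of the members, against 1.98 over all genes. Whether these lists differ was not tested.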

How the data were processed

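The ATAC-seq data of 2 WT and 2 Dot1l-BKO mice, from nuclei of BAT, were analysed, and the RNA-seq libraries of the series were not used here. Per the methods, the authors used Partek Flow, in which BWA mapped the paired-end reads on mm10, and ran MACS2 in its ATAC mode, keeping peaks at a q-value of 0.05 and an enrichment of 2.0. The processing notes name MACS2 2.1.1, cutadapt 1.2.1 and bcl2fastq 2.2. The authors' deposited list gives 1 summit per peak with the −log10 of its q-value, used here as the score, and it combines the 4 libraries. The label of the list sets the WT libraries against the Dot1l-BKO libraries. The methods describe peaks per sample, joined into a union of regions. Whether the genotypes entered MACS2 as treatment and control for this list, the shift of reads for the transposase and the handling of multi-mapped and mitochondrial reads are not given in the sources used here. These steps decide which summits exist and cannot be repeated from the list. Read depth is unknown.

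Summits on chromosomes 1 to 19 were placed against the RefSeq annotation release 108 of GRCm38.p6, the same build. TSSs were the starts of curated mRNAs, and windows of 1 kb and 10 kb on each side and the span of the curated mRNAs were counted. Shares have 95% Wilson intervals and densities exact Poisson intervals, which cover counting error only. No test was made, since the list has no values per library. Motif patterns were counted on both strands. Printed sequences leave out untranslated bases of curated mRNAs. The 5 members with the highest promoter scores, every member without a promoter summit, the 5 with the most gene-body summits, the 5 with the most summits within 10 kb (6 with ties) and Brd2 were named with full values, and the rest by role. A member that stands in the counts but is not named is not reported here by itself. The members, the roles, the other 71 genes and the markers were chosen with earlier results of these data known. The counting was tested on simulated data, where 200 of 200 planted promoter summits were recovered and 0 genes were called without one. Alternatives changed the score minimum, window, transcripts, merging and reading of the symbol rule. The tools were pysam 0.24.0, matplotlib 3.10.9, scipy 1.17.1, pandas 2.3.3 and numpy 2.4.6 under Python 3.11.15.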

Additional observations from a re-analysis of the deposited data

How the results depend on the processing

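The score minimum moved the values most. With a score of at least 5, gene-body summits fell to 1.27 per 100 kb of member gene and the share of all autosomal genes with a promoter summit was 37.5%. With a score of at least 10, 16 members kept a promoter summit, 24 a summit within 10 kb and 18 a gene-body summit. For 10 kb and the gene body the share of all genes at that minimum is not given. Whether the members stood above all genes there cannot be read from these counts. The median of the highest promoter score was then 22.7, the gene-body density 0.579 per 100 kb, 34 of the other remodeler and bromodomain genes kept a promoter summit and the share of all genes was 24.5%. The share of all genes was 48.2% with predicted mRNAs added, 45.4% with the most 5-prime TSS of each gene, 42.9% with 500 bp on each side, 51.8% with 5 kb, 36.4% with 1 kb upstream to 100 bp downstream and 48.8% with every annotated start, the last chosen after seeing the data. Leaving out the 1 kb around each TSS gave a gene-body density of 2.11 per 100 kb, and 27 of 50 members kept a gene-body summit. The 1.98 per 100 kb over all genes includes summits in that 1 kb and is not its counterpart. Outside that 1 kb, all genes held 12956 gene-body summits in 945 Mb of full gene length, and the members 75 in 3.62 Mb. The number of members with a promoter summit was 25 with a score of at least 5 and ran from 27 to 42 under the alternatives that kept every score. It was 38 with predicted mRNAs, which gained Arid5b, Chd3, Baz2a and Brd2, and 27 with 100 bp downstream, which lost Smarcd2, Smarce1, Arid5a, Ino80c, Brd7, Brd8 and Brd9. No paired analysis was possible because summits were deposited without values per library, and for the same reason no replicate could be left out. A summit within 1 kb of a TSS may belong to a neighbouring gene, as near Arid4b, Brd8, Brd9 and Ino80e, and a gene listed without a summit may fall below a cutoff that depends on unknown depth.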

Other observations

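Close paralogs differed in their promoter summits in several families and were alike in others, and the genes named here were chosen after their values were seen. Smarca2 and Smarca4, Smarcc1 and Smarcc2, the Smarcd genes, Arid1a and Arid1b, and Chd6 and Chd9 all had a promoter summit. Chd1 and Chd8 had one and Chd2 and Chd7 did not, and of the Baz1 genes, whose products both partner with Smarca5, Baz1b had one of 41.0 while the single summit of Baz1a, 10.9, lay 1374 bp downstream of its TSS. Among the ARID pairs, Arid4a and Arid4b had 48.2 and 75.6, whereas of the Arid3 genes Arid3a had 4.16 and Arid3b and Arid3c had none within 1 kb. The Arid5 pair was divided in the same way, with 8.12 at Arid5a and none within 1 kb at Arid5b. With every annotated start allowed, Chd2, Baz1a and Arid5b also had a summit within 1 kb of a start, at 311, 974 and 52 bp, so that these 3 differences rest on the curated TSSs, whereas Chd7, Arid3b and Arid3c still had none.

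Of the other genes of these complexes, the following were chosen after their values were seen. Ep400, the ATPase of the EP400 complex, had a promoter score of 69.5, and Ruvbl2, an AAA+ ATPase shared by the INO80 and EP400 complexes, had 39.3 with 8 summits within 10 kb. Of the 16 SWI/SNF partners, Actl6b, Phf10, Bcl11a and Bcl11b had no summit within 10 kb or in the body. Actl6a, the paralog of Actl6b, had a promoter score of 22.4.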
